A study of Mus musculus with 6 samples.

Results

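The 9 genes described here encode the transcription factors on the activating side of the circadian clock and its first outputs: 3 activators (Arntl, Clock and Npas2), 2 Rev-erb repressors (Nr1d1 and Nr1d2) and 4 bZIP factors (Dbp, Tef, Hlf and Nfil3). They were chosen by symbol, and all 9 were found among the 45777 genes of the deposited count table. RNA came from the anterior cingulate cortex, a frontal midline area of the mouse brain. 3 libraries came from BALB/c mice after social defeat stress, exposure to attack by a dominant mouse, over 5 days. Another 3 came from BALB/c mice without stress. The labels name neither a mutation nor a drug in either group. The labels used here do not state how many animals stand behind a library, their age and sex, or the time of day at which tissue was taken, so p-values measure the spread between these libraries, which may be technical.

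In mammals the clock is a feedback loop that runs in most cells, cortical neurons and glia included. BMAL1, the product of Arntl, pairs with CLOCK or with NPAS2 and switches on genes that carry E-boxes, among them the Per and Cry repressors, the Rev-erbs and Dbp. The Rev-erbs in turn silence Arntl, so that Arntl messenger RNA peaks at about the opposite time of day from Dbp and Nr1d1. DBP, TEF and HLF, the PAR bZIP proteins (rich in proline and acidic residues), activate genes through D-boxes, and NFIL3 represses through the same element. In the mouse brain the PAR bZIP factors are known for maintaining pyridoxal kinase (Pdxk) and for protecting against seizures.

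The promoters of the genes themselves were searched for such elements. RefSeq start sites gave 13 windows (GRCm38.p6, from 250 bases before to 50 bases after each start) for the 9 genes. The stretches below are shown because Tef was 1 of the 2 genes whose groups did not overlap in the comparison that follows and Arntl had the highest log2 fold change of the 9, and because Hlf carries the element read by CREB, the factor through which cyclic AMP acts. Capitals mark an E-box (CACGTG) in the 2 Tef promoters and the cyclic AMP response element (TGACGTCA) in Hlf. In Arntl they mark TAGGTCA, a match to TNGGTCA (N, any base). That pattern includes the core bound by Rev-erbs and RORs but is wider. Each runs 5′ to 3′ on the strand of its gene.

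Tef, upstream start (chr15:81802496-81802601, plus strand): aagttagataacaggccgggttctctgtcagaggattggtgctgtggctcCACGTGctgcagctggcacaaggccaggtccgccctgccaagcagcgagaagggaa

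Tef, downstream start (chr15:81811226-81811331, plus strand): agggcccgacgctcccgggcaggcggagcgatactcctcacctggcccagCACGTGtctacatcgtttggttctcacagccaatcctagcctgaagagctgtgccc

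Arntl (chr7:113207491-113207560, plus strand): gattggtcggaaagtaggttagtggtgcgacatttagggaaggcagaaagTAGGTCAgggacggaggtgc

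Hlf (chr11:90390869-90390976, minus strand): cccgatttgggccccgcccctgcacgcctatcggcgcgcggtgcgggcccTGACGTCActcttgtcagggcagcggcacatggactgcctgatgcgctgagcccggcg

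The E-boxes began 127 and 138 bases before the 2 Tef starts, the Arntl core 30 bases after a start and the Hlf element 9 bases before one, which are offsets of -127, -138, 30 and -9. Both strands were searched. CACGTG occurred in windows of 1 of the 9 genes (Tef), against 8.09% of 27025 genes with a window. TNGGTCA occurred in those of 3 (Arntl, Tef and Nfil3), against 12.4%, and TGACGTCA in that of 1 (Hlf), against 2.03%. The letters TAGGTCA were matched in Arntl and, on the other strand, in Nfil3 (TGACCTA). Tef matched TNGGTCA only as TGACCAA, which is TTGGTCA on the other strand. Arntl also held TTGGTCA and TCGGTCA. The share of genes with TAGGTCA itself was not counted. The 2 Arntl windows overlap, and so share matches. A D-box (TTANGTAA) was found in none of the 9, against 2.72% of all genes. Such matches are letters in short windows and were not tested for binding.

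The library totals lay between 41623899 and 47212982 counts, and 19227 genes had enough counts to be tested. By the quasi-likelihood test of edgeR, 1 of them had an adjusted p under 0.05 (Benjamini-Hochberg). It was Stk19-ps1, a pseudogene outside the clock, named here after its values were seen. Libraries did not divide by group alone. On the first principal component of log2 CPM (counts scaled to the library total), which held 34.5% of the variance, the stress libraries lay between 14.9 and 20.4, and non-stress 1 lay beside them at 11.7. Non-stress 2 and 3 lay at -37.4 and -27.4. Without non-stress 1 the count of genes called was 756, so that library is named below wherever a result rests on it. Cortical neuron markers were abundant, with a summed level of 1959 to 1975 CPM in stress and 1912 to 2081 CPM in non-stress over 6 of 6 genes. Of 5 marker genes of the suprachiasmatic nucleus, the master clock of the hypothalamus, Nms had 0 counts in all 6 libraries, Six6 had 2 counts in non-stress 1 alone, and Lhx1 had 13 and 4 counts in non-stress 1 and 2 and 0 elsewhere. Vip and Avp passed the filter and together gave 92.7 to 102 CPM in stress and 75.3 to 105 CPM in non-stress, nearly all of it from Vip, which cortical interneurons also express.

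Among themselves, the 9 genes kept one order of abundance in both groups when CPM were divided by exonic length. Dbp was the most abundant per kb, at 60.3 ± 3.87 CPM per kb in stress and 70.8 ± 2.62 CPM per kb in non-stress (SD, n = 3 each). Nr1d1 followed at 39.6 ± 1.66 CPM per kb in stress and 41.6 ± 3.93 CPM per kb in non-stress, and Tef at 32.3 ± 0.555 CPM per kb in stress and 36.1 ± 2.15 CPM per kb in non-stress. Nr1d2 and Hlf, next in order, overlapped within each group at means of 16.1 to 17.1 CPM per kb, and were the only neighbours in the order that did. Npas2 (7.42 CPM per kb in stress, 7.43 in non-stress), Nfil3 (5.65 in stress, 5.42 in non-stress), Arntl (4.49 in stress, 4.04 in non-stress) and Clock (2.45 in stress, 2.24 in non-stress) came last. The Rev-erbs and the PAR factors thus stood above the activators. Exonic length is the union of GENCODE exons and overstates the length of genes with many isoforms, such as Clock with 13.727 kb.

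Comparing stress with non-stress asks how repeated defeat bears on gene expression in this region. The bZIP outputs Dbp and Tef lay lower in all 3 stress libraries than in any non-stress library, by 1.17-fold and 1.12-fold, while the activators Arntl and Clock averaged higher in stress, by 1.11-fold and 1.09-fold, with overlapping libraries. None of these passed the adjusted threshold: 0 of the 9 genes were called, against 0.00520% of all genes tested. The log2 fold change (stress over non-stress throughout) was below 0 for 6 of the 9 and above 0 for 3, with a median of -0.05, against 50.2% below 0 and a median of 0.00 over all genes. At an unadjusted p under 0.05, 2 of the 9 were lower (Dbp and Tef), where 6.27% of all genes were, and 0 were higher, where 5.80% were. Groups did not overlap for the same 2 genes, both lower, against 9.20% of all genes lower without overlap and 8.70% higher.

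**Figure D1:**
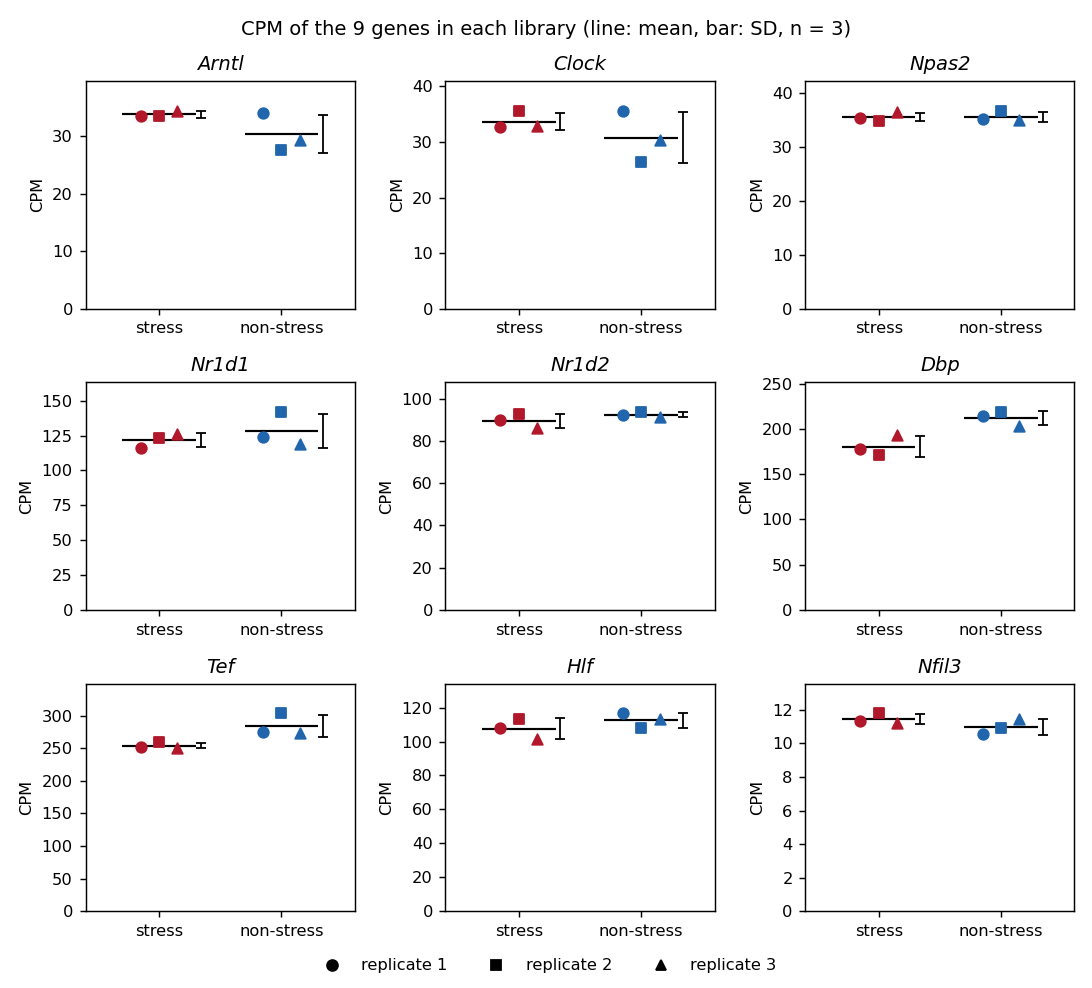
CPM (vertical axes, from 0) of the 9 genes in the stress libraries (red, left) and non-stress libraries (blue, right), with each group's mean as a line, its SD as a bar (n = 3) and symbols for replicate numbers. The groups are separated for Dbp and Tef, and in Arntl and Clock non-stress 1 lies with the stress libraries rather than with non-stress 2 and 3.

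Arntl encodes the partner that the loop cannot run without (chromosome 7, 113207465 to 113314126, plus strand, GRCm38 and GENCODE M21, as for the positions that follow). It had 33.5, 33.4 and 34.4 CPM in stress 1, 2 and 3, against 34.1, 27.7 and 29.3 CPM in non-stress 1, 2 and 3. The stress libraries were close together, and non-stress 1 lay within their range. Its log2 fold change was 0.16 (95% interval -0.02 to 0.33; edgeR adjusted p = 0.455). Without non-stress 1 the log2 fold change was 0.25 (edgeR adjusted p = 0.0566), and without non-stress 2 it was 0.09 (adjusted p = 0.754).

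Clock (chromosome 5, 76209868 to 76304792, minus strand) encodes the partner of BMAL1 that also acetylates histones. It had 32.7, 35.5 and 32.9 CPM in the stress libraries and 35.6, 26.4 and 30.3 CPM in the non-stress libraries. Non-stress 1 was the highest of all 6 and non-stress 2 the lowest, so the groups overlapped across the full range. The log2 fold change was 0.13 (95% interval -0.09 to 0.35; edgeR adjusted p = 0.611), or 0.25 without non-stress 1 and 0.03 without non-stress 2. Clock has few G and C bases (40.9% of its longest transcript, with 8.35% of tested genes lower), and with smooth trends on GC content and transcript length taken out of each library its log2 fold change was 0.02. That of Arntl was 0.18 after the same step.

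Npas2 (chromosome 1, 39193731 to 39363236, plus strand) is a Clock paralog known for its expression in the forebrain. It had 35.3, 34.9 and 36.5 CPM in stress and 35.2, 36.7 and 34.9 CPM in non-stress, and the ranges of the groups nearly coincided. The 95% interval of its log2 fold change (0.00; edgeR adjusted p = 0.990) ran from -0.12 to 0.12. Its sign turned with the processing and is not given a direction here.

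The Rev-erbs, nuclear receptors that bind heme and recruit corepressors to Arntl, overlapped between groups. Nr1d1 (chromosome 11, 98767932 to 98775333, minus strand) had 116, 124 and 126 CPM in stress, against 124, 142 and 119 CPM in non-stress. Non-stress 2 stood above all other libraries. The log2 fold change was -0.07 (95% interval -0.22 to 0.08; edgeR adjusted p = 0.690), and it was 0.01 without non-stress 2, -0.12 without non-stress 3 and 0.02 with the GC and length trends taken out. Nr1d2 (chromosome 14, 18204054 to 18239127, minus strand) had 89.6, 92.6 and 86.1 CPM in stress, against 92.4, 93.6 and 91.2 CPM in non-stress. Stress 2 lay among the non-stress libraries. Its log2 fold change was -0.05 (95% interval -0.15 to 0.05; edgeR adjusted p = 0.699), or -0.02 without stress 3 and -0.07 without stress 2.

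Exons of Nr1d1 overlap those of Thra, the thyroid hormone receptor alpha gene on the opposite strand. The pair share 263 exonic bases, 8.55% of those of Nr1d1, and without strand information reads there cannot be assigned. Thra had 195, 208 and 216 CPM in stress and 214, 223 and 215 CPM in non-stress (log2 fold change -0.07). Its stress libraries followed the same order as those of Nr1d1, with stress 1 lowest and stress 3 highest. In non-stress the orders differed: both genes were highest in non-stress 2, but Thra was lowest in non-stress 1 and Nr1d1 in non-stress 3.

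Dbp (chromosome 7, 45705088 to 45710203, plus strand), whose product binds D-boxes and which is among the most strongly cycling transcripts of many tissues, had the smallest p-value of the 9. It had 177, 171 and 193 CPM in stress 1, 2 and 3, against 214, 219 and 203 CPM in non-stress 1, 2 and 3. Every stress library lay below every non-stress library, and the nearest pair was stress 3 and non-stress 3. Dbp averaged 180 ± 11.6 CPM in stress and 212 ± 7.83 CPM in non-stress (SD, n = 3 each). The log2 fold change was -0.23 (SE 0.05, 95% interval -0.35 to -0.11), which ranked 92 of 19227 by p, with an edgeR adjusted p of 0.344. DESeq2's Wald test gave the same log2 fold change and an adjusted p of 0.0215, in a run that called 127 genes, 1.05% of the 12144 to which it gave an adjusted p.

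The difference in Dbp was present with any 1 library left out, at log2 fold changes from -0.28 to -0.19, with edgeR adjusted p-values from 0.0658 (without non-stress 1) to 0.732 (without stress 1). Dbp is rich in G and C (61.6%, with 97.9% of tested genes lower), and with the GC and length trends taken out its log2 fold change was -0.15 (edgeR adjusted p = 0.274). Dbp shares 539 exonic bases, 18.0% of its own, with Sphk2, a sphingosine kinase gene on the opposite strand. Sphk2 had 29.7, 33.5 and 27.6 CPM in stress and 29.8, 39.4 and 33.6 CPM in non-stress, with overlapping groups. It averaged 30.2 ± 3.01 CPM in stress and 34.3 ± 4.87 CPM in non-stress (SD, n = 3 each), a log2 fold change of -0.18 (edgeR adjusted p = 0.510).

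Tef (chromosome 15, 81802421 to 81826863, plus strand), the thyrotroph embryonic factor, was the most abundant of the 9 before division by length. It had 253, 259 and 251 CPM in stress, against 276, 304 and 273 CPM in non-stress. The stress libraries lay close together and below all non-stress libraries, of which non-stress 2 was the highest. The means were 254 ± 4.37 CPM in stress and 284 ± 16.9 CPM in non-stress (SD, n = 3 each), a log2 fold change of -0.16 (SE 0.05, 95% interval -0.27 to -0.05; edgeR adjusted p = 0.344). It was -0.11 without non-stress 2 and -0.10 with the GC and length trends taken out, and DESeq2's adjusted p was 0.126.

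Hlf (chromosome 11, 90336536 to 90390895, minus strand), the hepatic leukemia factor, overlapped between groups. It had 108, 114 and 101 CPM in stress and 117, 108 and 113 CPM in non-stress. Stress 2 lay among the non-stress libraries, and stress 3 was the lowest of all. The log2 fold change was -0.07 (95% interval -0.19 to 0.06; edgeR adjusted p = 0.642), or -0.02 without stress 3 and -0.11 without stress 2.

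Nfil3 (chromosome 13, 52967209 to 52981073, minus strand), the repressor that competes with the PAR factors for D-boxes, had the fewest counts of the 9, from 456 to 514, at which counting alone gives an error of 4.68%. It had 11.4, 11.8 and 11.2 CPM in stress, against 10.6, 10.9 and 11.5 CPM in non-stress. Non-stress 3 lay among the stress libraries. The log2 fold change was 0.06 (95% interval -0.11 to 0.23; edgeR adjusted p = 0.784), or 0.03 without non-stress 1 and 0.09 without non-stress 3.

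**Figure D2:**
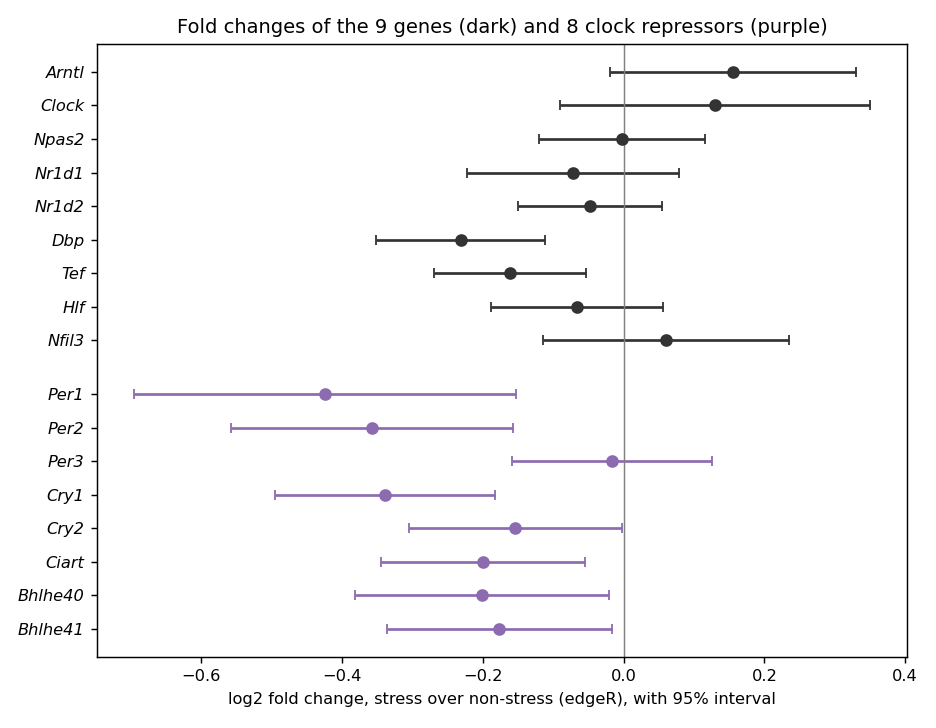
Log2 fold changes, stress over non-stress, from edgeR (points) with 95% intervals (bars) for the 9 genes (dark) and for 8 clock repressors (purple). The intervals of Dbp and Tef lie below 0 and those of the other 7 genes span it, while 7 of the 8 repressor intervals lie below 0. No gene shown passed the adjusted threshold.

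Ratios between genes of the same library do not depend on how libraries are scaled. Dbp over Nfil3, the balance of an activator and the repressor of the D-box, was 3.96, 3.85 and 4.10 on the log2 scale in stress, against 4.33, 4.32 and 4.14 in non-stress. The groups did not overlap, although stress 3 and non-stress 3 were close. Tef over Nfil3 was 4.47, 4.45 and 4.48 in stress, against 4.70, 4.79 and 4.57 in non-stress, again without overlap. For Hlf over Nfil3 the ratios were 3.24, 3.26 and 3.17 in stress and 3.46, 3.30 and 3.30 in non-stress, also without overlap. Of all other genes tested, 14.4% likewise had a lower ratio to Nfil3 in every stress library than in any non-stress library. The mean differences, stress minus non-stress, were -0.29 for Dbp, -0.22 for Tef and -0.13 for Hlf. With 1 library left out, they ranged from -0.36 to -0.23 for Dbp, from -0.28 to -0.17 for Tef and from -0.16 to -0.07 for Hlf, the last without non-stress 1. These ratios share the Nfil3 values, and scores over chosen genes were given no p.

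Dbp over Arntl, an output against the driver of opposite phase, was 2.40, 2.35 and 2.49 on the log2 scale in stress, against 2.65, 2.98 and 2.79 in non-stress. The groups did not overlap, as was so, in the same direction, for the ratio to Arntl of 19.2% of all other genes tested. The mean difference was -0.39, with a pooled SD of 0.13. Leaving out any 1 library gave -0.47 to -0.31, the largest without non-stress 1 and the smallest without non-stress 2. Nr1d1 over Arntl (mean difference -0.23) and Nr1d2 over Arntl (-0.21) overlapped, with non-stress 1 inside the stress range for both. Without non-stress 1 they were -0.34 and -0.29, and without non-stress 2 they were -0.09 and -0.13. Npas2 over Clock (-0.14) overlapped as well, and was -0.26 without non-stress 1 and -0.01 without non-stress 2. Nr1d1 over Nr1d2 (-0.02) also overlapped and turned sign, to 0.02 without stress 1 and 0.05 without non-stress 2.

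**Figure D3:**
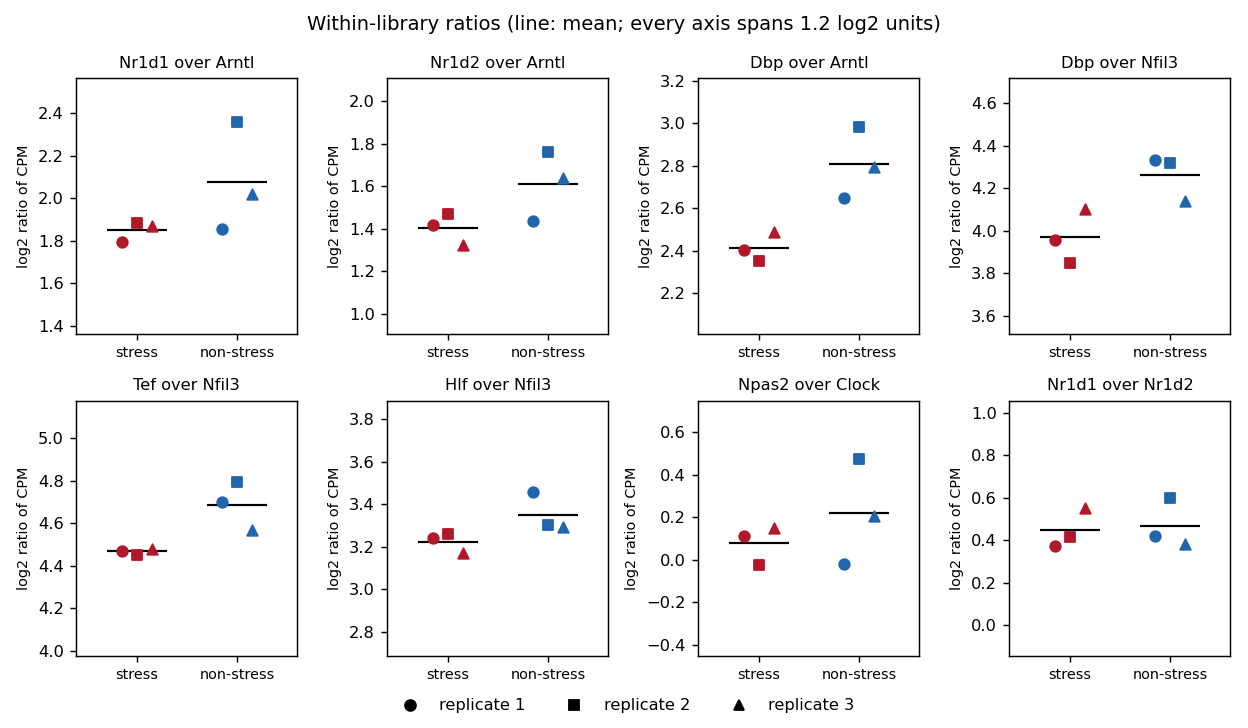
Within-library log2 ratios of CPM for 8 pairs of the genes in stress (red, left) and non-stress (blue, right), with group means as lines and 1.2 log2 units on every vertical axis. Dbp over Arntl and the ratios of Dbp, Tef and Hlf over Nfil3 separate the groups, and the other 4 pairs overlap.

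Ccdc6 and Cavin2 were among the genes whose profile over the 6 libraries was nearest to that of Dbp. Likeness was measured as the root mean square difference of log2 CPM centred on each gene's mean, over 10959 genes of at least 5 CPM. It was 0.03 for both. Those nearest to Nr1d1 were Arhgdia, Med25 and Fastkd3 (0.02 each), all of which share its high value in non-stress 2. Chm, Gria3 and Pcsk1 were nearest to Arntl (0.02 each), and like Arntl were low in non-stress 2 and 3 alone: Gria3, an AMPA receptor subunit gene, had 202, 197 and 209 CPM in stress and 204, 169 and 174 CPM in non-stress. With 6 libraries, near matches among so many genes are a description only.

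The rest of the pathway had 0 genes past the adjusted threshold. Of the 8 repressors, all had log2 fold changes below 0 (median -0.20), 7 of 8 were lower at an unadjusted p under 0.05, and 6 of 8 did not overlap. Over all genes tested, 6.27% were lower and 5.80% higher at that threshold, and 9.20% were lower without overlap. Cry1 (-0.34), Per2 (-0.36) and Per1 (-0.42), which encode the proteins that shut off BMAL1, had the smallest p-values among the 8 repressors. The 4 RORs and activator paralogs, which compete with Rev-erbs or stand in for BMAL1, had a median of -0.07 with 0 at an unadjusted p under 0.05. That median was -0.24 without stress 2 and -0.0039 without stress 1. Arntl2 (-0.22), Rora (-0.05) and Rorb (0.05) led by p.

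Of the 16 kinases, ubiquitin ligases and other modifiers, 0 were below an unadjusted p of 0.05 and the median was -0.02. Of all genes tested, 6.27% were lower and 5.80% higher below that p. The casein kinase genes Csnk1e (-0.09) and Csnk1d (-0.07), whose products phosphorylate PER proteins, and Cipc (-0.07), an inhibitor of CLOCK, led by p. Among the corepressor genes, Gps2 (-0.23) and Hdac3 (-0.09) did not overlap between groups, while Ncor1, the main partner of the Rev-erbs, had a log2 fold change of 0.06 (250 ± 4.06 CPM in stress and 240 ± 10.7 CPM in non-stress, SD, n = 3 each).

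Of 11 reported targets outside the core loop, 8 lay below 0 and 3 above (median -0.05, or 0.01 with the GC and length trends taken out). At an unadjusted p under 0.05, 1 of the 11 was lower, where 6.27% of all genes were. That target was Tsc22d3 (-0.11), which glucocorticoids also induce, followed by Tspan4 (-0.11) and Fkbp5 (-0.13). Pdxk, the brain target of the PAR factors, had 123, 123 and 126 CPM in stress, against 118, 127 and 119 CPM in non-stress (log2 fold change 0.03, 95% interval -0.07 to 0.13). Its groups overlapped, with all 3 stress libraries inside the range of the non-stress libraries.

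Markers of cell types were set beside these values, because in bulk tissue fewer cells of a type and less RNA per cell cannot be told apart. Astrocyte markers, all 5 of 5 detected, summed to 854 to 880 CPM in stress and 881 to 925 CPM in non-stress, ranges that nearly touched. Their separation rested on Gfap, which had 13.2, 12.5 and 14.5 CPM in stress and 26.6, 5.34 and 4.73 CPM in non-stress: the other 4 markers summed to 842 to 866 CPM in stress and 856 to 920 CPM in non-stress, with overlap. Among the 5, Aldh1l1 stood lower in every stress library than in any non-stress library, and Aqp4 higher. Markers of GABAergic neurons, 6 of 6 detected, summed to 933 to 934 CPM in stress and 863 to 933 CPM in non-stress, again ranges that nearly touched. Sst stood higher in every stress library than in any non-stress library (log2 fold change 0.27), and Gad1 lower (-0.11). Gad2 (0.14) and Slc32a1 (-0.49, with means of 3.50 CPM in stress and 4.90 CPM in non-stress) overlapped. Of the 6 GABAergic markers, 3 lay below 0 and 3 above. Microglial markers (256 to 272 CPM in stress, 267 to 271 CPM in non-stress) and oligodendrocyte markers (6217 to 6742 CPM in stress, 5637 to 7062 CPM in non-stress) overlapped as sums. Of the 5 microglial markers, Tmem119 and, narrowly, Csf1r stood lower in every stress library than in any non-stress library, and 0 stood higher. Of the 6 cortical neuron markers, Neurod6 stood higher in this way (log2 fold change 0.19) and 0 stood lower. Of 5 endothelial and mural markers, Rgs5 stood lower (-0.14) and 0 stood higher. Of all genes tested, 9.20% stood lower in this way and 8.70% higher. Of 6 pituitary markers, Gh and Pomc had enough counts to be tested and together gave 3.30 to 12.6 CPM in stress, against 1.09 to 2.71 CPM in non-stress. Gh alone had 8.13, 9.19 and 0.669 CPM in stress 1, 2 and 3, and 0.208, 0.128 and 0 CPM in non-stress. Prl, below the filter, had 31, 39 and 7 counts in stress and 0 in all 3 non-stress libraries. Lhb, also below it, went the other way, with 0 counts in stress and 5, 4 and 5 in non-stress. Tshb had 4, 10 and 15 counts in stress and 7, 0 and 0 in non-stress. Cga had 3, 12 and 0 counts in stress and 4, 0 and 2 in non-stress. Glucocorticoid-responsive genes, 7 of 7 detected, summed to 413 to 426 CPM in stress and 417 to 440 CPM in non-stress. Tsc22d3 and Sgk1 gave most of the sum, with means of 203 and 111 CPM in stress. Of the 7, Cdkn1a stood higher in every stress library than in any non-stress library (log2 fold change 0.42). Per1 stood lower (-0.42), and the rest overlapped. The part of astrocyte, neuronal, microglial, endothelial, mural or pituitary RNA in the values of Dbp and Tef was not tested.

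**Figure D4:**
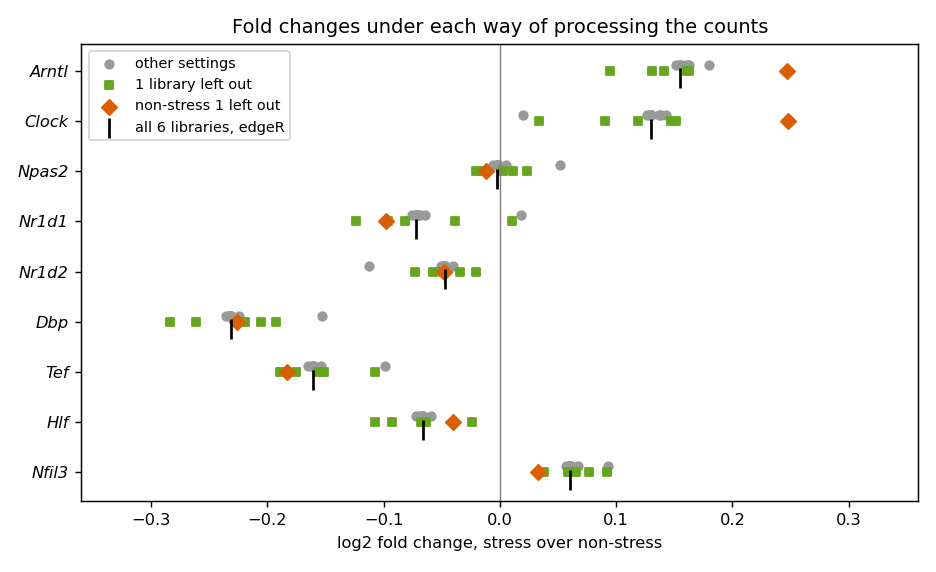
Log2 fold changes, stress over non-stress, of the 9 genes under each way of processing the counts: all 6 libraries with edgeR (black bar), 1 library left out (green squares, with non-stress 1 as orange diamonds) and other settings (grey). Dbp and Tef lie below 0 in all 15 alternatives, Arntl and Clock above 0 in all 15 with their largest values without non-stress 1, and Npas2 and Nr1d1 appear on both sides of 0.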

How the data were processed

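RNA-seq libraries of mouse anterior cingulate cortex (3 stress, 3 non-stress) were prepared, per the labels' protocols, by SMARTer Ultra low RNA chemistry and TruSeq construction. In the SMARTer chemistry, cDNA synthesis is primed at poly(A) tails. The authors deposited whole-number counts per gene, and these were used unchanged. Per the submitters' processing notes, Trimmomatic 0.38, HISAT2 and StringTie were used with GRCm38 (mm10). How counts, strand and multiply mapped reads were handled is not given in the sources used here, so counting errors cover independent counts only.

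Genes were filtered with filterByExpr, scaled by TMM (factors 0.996 to 1.00) and tested two-sided with edgeR 4.0.16's quasi-likelihood test (R 4.3.3), group being the only term, with Benjamini-Hochberg adjustment over 19227 genes at 0.05. The log2 CPM used a prior count of 2. The 9 genes, the lists and the naming rule (all 9 genes, the 3 smallest p-values of every other list, and the 3 most alike genes of Dbp, Nr1d1 and Arntl) were chosen with earlier results of these data known, and serve as description. Ncor1, Pdxk, Thra, Sphk2 and the marker genes were named outside that rule, for their roles or positions, after their values were seen. The fit was tested on simulated data. Alternatives were DESeq2 1.42.0, limma-voom (limma 3.58.1), other scaling, filters and dispersions, each library left out, and a replicate block. The removal of GC and length trends, for 17174 genes (89.3%) with GENCODE M21 values, the astrocyte sum without Gfap and the shares of all genes by their ratio to Nfil3 or Arntl were chosen after seeing the data. A planned protein comparison was not made, and some genes that the naming rule selects are not reported here.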

Additional observations from a re-analysis of the deposited data

How the results depend on the processing

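With edgeR, 1 gene passed the adjusted threshold. The count was 127 with DESeq2, 2 with limma-voom, 4 with robust dispersions, 4 with the GC and length trends removed, and 1 to 756 with 1 library left out, the highest without non-stress 1. Genes at an unadjusted p under 0.05 numbered 2322 in all 6 libraries and 1282 to 3816 with 1 left out. Of the 9 genes, 0 passed the adjusted threshold, and 1 did with DESeq2 (Dbp). Those at an unadjusted p under 0.05 were 2, and 2 to 4 with 1 library left out, where Arntl and Clock joined without non-stress 1. Genes without overlap were 2, and 2 to 4 with 1 left out. Nr1d2 and Hlf joined without stress 2, Arntl and Clock without non-stress 1, and Nfil3 without non-stress 3. With 1 library fewer, groups separate more easily by sampling alone, and the share of all genes without overlap was not counted there. Of the other clock genes 0 passed, against 2 with DESeq2 (Cry1 and Per2) and 0 to 2 with 1 library left out (Cry1 and Ciart, without non-stress 1). Npas2 (-0.0022 with edgeR) reversed to 0.0051 under the filter of 50 counts, to 0.0025 without stress 1, 0.011 without stress 2 and 0.024 without non-stress 2, and to 0.051 with the trends removed. Nr1d1 reversed to 0.011 without non-stress 2 and to 0.018 with the trends removed. With 1 library left out, Npas2 ranged from -0.021 to 0.024 and Nr1d1 from -0.12 to 0.011. The causes were not tested. The other 7 genes kept their sign in all 15 alternatives. Of the 8 ratios, the difference of Nr1d1 over Nr1d2 turned sign, and ranged from -0.07 to 0.05 with 1 library left out.

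Same-numbered libraries of the 2 groups correlated at 0.016, -0.030 and 0.021 in their deviations from the group means, so the numbers were not taken to pair them. A replicate block called 2 genes, 0 of them among the 9, and gave Dbp a log2 fold change of -0.23 (edgeR adjusted p = 0.286). Counting error was at most 4.68% for any of the 9 genes in any library.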
